A study of Mus musculus with 12 samples.

Results

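The 39 protein-coding Hox genes of the mouse lie in 4 clusters, Hoxa, Hoxb, Hoxc and Hoxd, and all of them are described here by the MOF peaks that lay on and between them in visceral white adipose tissue (WAT). The members were chosen by symbol from 21938 protein-coding genes of GENCODE M21, and the clusters themselves were selected on the measured peak lists, in which an earlier look had shown many Mof+/- peaks near Hox genes. Counts of peaks in the clusters are therefore a description and carry no test. A Hox gene was counted as carrying a peak where a peak overlapped its body or the 3 kb on either side of any annotated start site. A cluster ran from 3 kb outside the outer end of its first coding gene to 3 kb outside that of its last. The 4 clusters together covered 515.8 kb.

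MOF (KAT8) is the acetyltransferase that places the acetyl mark on lysine 16 of histone H4, a mark of open chromatin. ChIP-seq was made from C57BL/6 mice 8 weeks of age on a standard diet that carried either both copies of Mof (Mof+/+) or a single working copy in every cell (Mof+/-). The 12 libraries comprise MOF ChIP, H3 ChIP and input of each genotype, with 2 libraries in each of these 6 groups. A summary deposited with the study counts 2 littermates per genotype, whereas the design text speaks of 3 Mof+/- animals, and the sex of the animals used for ChIP is not given in the sources used here. MOF peaks were given as 1 list per genotype without replicate values, so that the variation between animals is not known and no difference below was tested. The tissue was taken whole, so that MOF in fewer cells and less MOF per cell cannot be told apart. In the body or within 3 kb of a start site, 9 of 10 adipocyte marker genes carried a Mof+/+ peak, as did 6 of 6 B cell, 5 of 6 T cell, 2 of 6 endothelial and 1 of 6 each of macrophage and mesothelial markers, compared with 44.5% of all protein-coding genes. Within 1 kb of a start they were 5 of 10 adipocyte, 5 of 6 B cell, 5 of 6 T cell and 1 of 6 each of endothelial, macrophage and mesothelial markers, compared with 41.0% of all genes. In the Mof+/- list 0 of the adipocyte markers, 1 B cell marker (Pax5) and 1 mesothelial marker (Wt1) carried a peak in the wider window, compared with 1.89% of all genes.

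Hox genes encode homeodomain transcription factors that give cells along the head-to-tail axis their position. Within a cluster they stand in the order in which they act along that axis, so that paralogous groups 1 to 4 are called anterior, groups 5 to 8 middle and groups 9 to 13 posterior. Polycomb proteins hold the clusters silent and trithorax proteins, such as the methyltransferase Kmt2a, keep them active, and adult fat depots keep the Hox pattern of their origin.

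The sequences below are those under the strongest peaks and show where the named sites lie. The 3 sites in the Hoxa, Hoxb and Hoxc clusters are the 201 bases around the summit of the strongest Mof+/- peak (in Hoxc, 1 of 2 with the same value), and the Hoxd site is the 212 bases of the strongest Mof+/- peak that lie upstream of the RefSeq start of Hoxd13. The last is the 201 bases around the strongest Mof+/+ summit without a Mof+/- overlap, upstream of Hoxa4. All are from GRCm38, plus strand, 5′ to 3′, with each CpG dinucleotide in capitals.
Hoxa11–Hoxa13 interval, chr6:52254077-52254277: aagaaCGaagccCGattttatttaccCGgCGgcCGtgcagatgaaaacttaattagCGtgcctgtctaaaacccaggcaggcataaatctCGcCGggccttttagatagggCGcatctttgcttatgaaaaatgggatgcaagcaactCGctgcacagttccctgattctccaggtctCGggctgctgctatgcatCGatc
Hoxb13–Hoxb9 interval, chr11:96203464-96203664: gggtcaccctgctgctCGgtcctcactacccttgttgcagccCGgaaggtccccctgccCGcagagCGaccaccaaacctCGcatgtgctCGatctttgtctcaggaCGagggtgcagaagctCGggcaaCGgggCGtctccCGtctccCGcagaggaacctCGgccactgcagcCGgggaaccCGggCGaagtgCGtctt
Hoxc11–Hoxc10 interval, chr15:102963917-102964117: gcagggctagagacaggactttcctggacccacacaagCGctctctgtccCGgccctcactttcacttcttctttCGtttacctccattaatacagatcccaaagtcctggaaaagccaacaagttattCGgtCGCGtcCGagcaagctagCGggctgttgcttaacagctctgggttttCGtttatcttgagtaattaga
Upstream of Hoxd13, chr2:74668013-74668224: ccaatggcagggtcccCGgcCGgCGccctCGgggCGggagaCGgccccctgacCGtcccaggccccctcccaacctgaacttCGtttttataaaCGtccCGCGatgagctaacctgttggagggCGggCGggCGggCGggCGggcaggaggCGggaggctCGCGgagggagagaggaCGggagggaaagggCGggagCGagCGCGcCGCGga
Upstream of Hoxa4, chr6:52192165-52192365: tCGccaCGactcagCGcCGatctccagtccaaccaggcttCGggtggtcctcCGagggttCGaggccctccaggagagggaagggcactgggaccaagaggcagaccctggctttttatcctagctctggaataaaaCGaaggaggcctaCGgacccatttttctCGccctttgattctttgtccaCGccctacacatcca
The Hoxd13 site was the richest of the 5 in CpG, with 26 sites in 212 bases (123 per kb) and a GC content of 73.1%. Unlike the other 4, it is not centred on its summit, chr2:74668242, and ends before it. In 201 bases, the Hoxb site held 17 CpG sites (84.6 per kb), the Hoxa site 12, the Hoxa4 site 11 and the Hoxc site 9.

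The clusters held 64 of the 19753 Mof+/+ peaks on chromosomes 1 to 19, X and Y and 33 of the 716 Mof+/- peaks. These made up 0.324% and 4.61% of their lists. The Mof+/+ list was 27.6 times as long as the Mof+/- list over the genome and 1.94 times as long within the clusters. The Hoxa cluster held 20 Mof+/+ and 11 Mof+/- peaks, Hoxb 20 and 8, Hoxc 11 and 3, and Hoxd 13 and 11. Hoxd was therefore the cluster in which the numbers of peaks were closest. Mof+/+ peaks covered 14.2% of the cluster sequence and Mof+/- peaks 5.03%, against 0.634% and 0.0179% of the genome. Coverage in the Mof+/+ list was highest in Hoxa, at 31.0%, followed by Hoxd at 14.1%, Hoxb at 9.17% and Hoxc at 6.38%. In the Mof+/- list it was 10.6% in Hoxa, 8.30% in Hoxd, 1.97% in Hoxc and 1.77% in Hoxb.

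**Figure D1:**
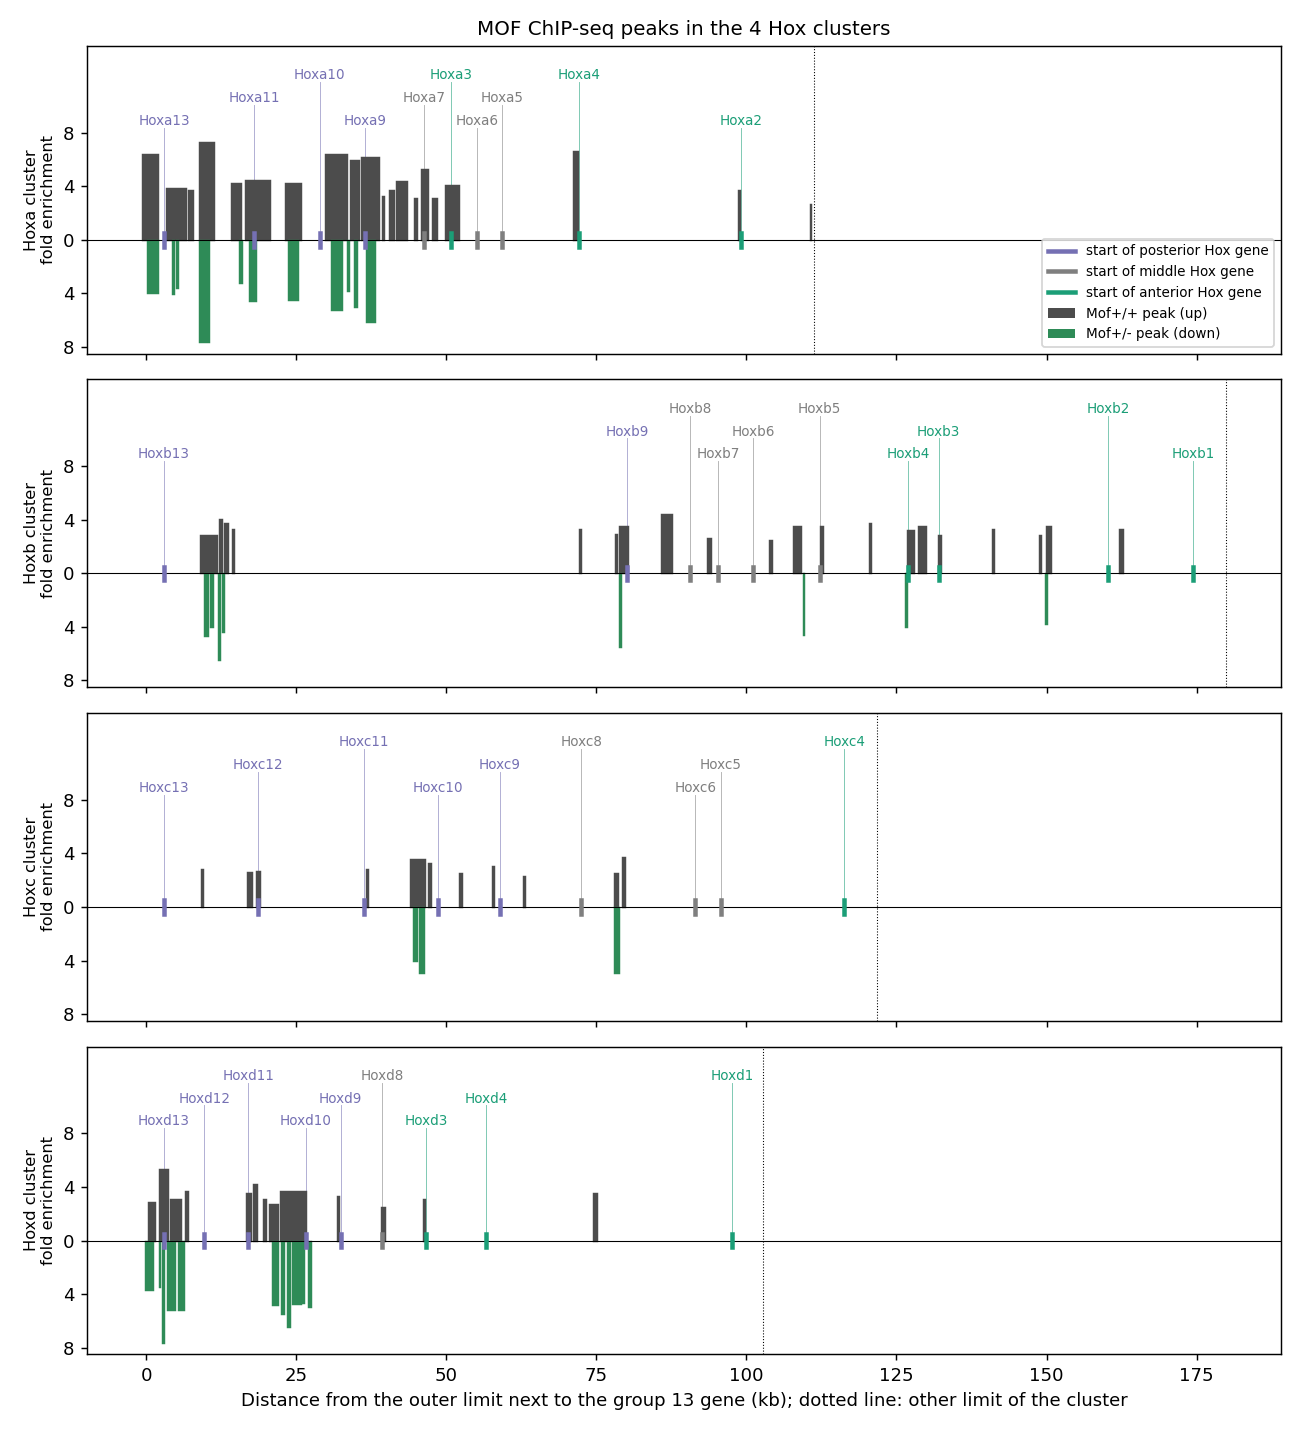
MOF peaks along the 4 Hox clusters, with distance in kb from the outer limit next to the group 13 gene on the x axis and fold enrichment over input on the y axis (Mof+/+ peaks as dark bars upwards, Mof+/- peaks as green bars downwards, bar width the width of the peak). Coloured ticks mark the principal start of each named gene, and the 11 Mof+/- peaks of Hoxa and the 11 of Hoxd all stand at the group 9 to 13 genes, whereas 4 of the 8 Mof+/- peaks of Hoxb stand downstream of Hoxb13 and the others along the cluster.

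The lists were not equally deep. Input background at a summit went down to 3.52 fragments among Mof+/+ peaks and to 2.26 among Mof+/- peaks, and the weakest −log10 p-value was 3.25 and 4.72, respectively. Of the 64 Mof+/+ peaks in the clusters, 20 were weaker than the weakest Mof+/- peak of the genome and would not have entered a list with that limit. Among the 13542 Mof+/+ peaks past that limit, 44 lay in the clusters, which was 0.325%. When the Mof+/+ list was cut at its best 716 p-values, to the length of the Mof+/- list, 5 peaks in the clusters were left (0.698%), all 5 of them in Hoxa.

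The summits in the clusters of Mof+/- peaks rested on 12 to 24 fragments, with a median of 15, and those of Mof+/+ peaks on 12 to 32, with a median of 16. A summit of the whole lists rested on a median of 14 and 16 fragments. The fold enrichment, which is the number of fragments plus 1 over the input background plus 1, had a median of 4.70 over the Mof+/- peaks of the clusters against 4.29 over the whole Mof+/- list. For Mof+/+ peaks the medians were 3.54 and 3.40. Peaks within 1 kb of a protein-coding start had a median of 4.29 among Mof+/- and 3.76 among Mof+/+ peaks, so that the Mof+/+ peaks of the clusters were below the promoter peaks of their own list. Of the 100 Mof+/- peaks with the highest fold enrichment 6 lay in the clusters, and of the 1000 highest Mof+/+ peaks also 6. The median width was 569 bp in the Mof+/- list (434.5 bp over that whole list) and 709.5 bp in the Mof+/+ list (609 bp over that whole list).

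Counted by gene, 31 of 39 Hox genes (79.5%) carried a Mof+/+ peak in the body or within 3 kb of a start, against 44.5% of all protein-coding genes. A Mof+/- peak was found at 15 of 39 (38.5%), against 1.89% of all protein-coding genes. Within 1 kb of a start site the counts were 24 of 39 (61.5%) in the Mof+/+ list, against 41.0% of all genes, and 7 of 39 (17.9%) in the Mof+/- list, against 1.32%. All 15 genes with a Mof+/- peak also carried a Mof+/+ peak, and 8 genes carried neither. The same share over all protein-coding genes with a Mof+/- peak was not counted. By peak, 84.8% of the whole Mof+/- list overlapped a Mof+/+ peak, so 15 of 15 is not read as a Hox trait. Neighbours share peaks, and the genes are not independent: 17 of the 64 Mof+/+ peaks and 4 of the 33 Mof+/- peaks touched 2 genes, whereas 9 and 7 peaks touched no gene window at all. Hoxa3, Hoxc5, Hoxd3 and Hoxd4 have long transcripts that run over their neighbours, which gives them peaks far from their coding exons. The clusters contributed 4 of 11 genes in Hoxa with a Mof+/- peak, 5 of 10 in Hoxb, 3 of 9 in Hoxc and 3 of 9 in Hoxd.

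**Figure D2:**
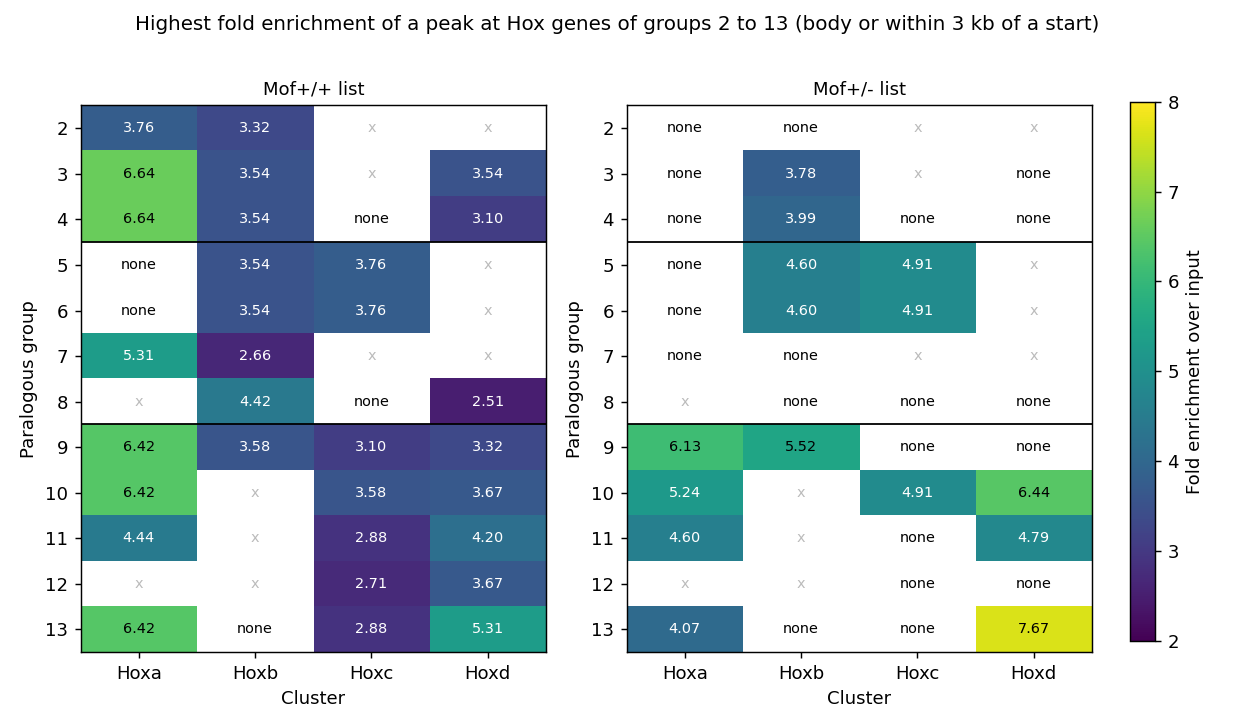
Highest fold enrichment of a peak at each Hox gene of groups 2 to 13, with paralogous group on the y axis and cluster on the x axis, for the Mof+/+ list (left) and the Mof+/- list (right). Colour and number give fold enrichment over input, "none" marks a gene without a peak and x a gene that the cluster does not have, and lines part anterior, middle and posterior groups; 9 of the 15 genes with a Mof+/- peak are in the posterior groups.

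The peaks were unevenly spread between anterior and posterior genes. Of the 16 posterior genes 15 carried a Mof+/+ peak (93.8%) and 9 a Mof+/- peak (56.3%). Of the 11 middle genes 8 and 4 did so (72.7% and 36.4%), and of the 12 anterior genes 8 and 2 (66.7% and 16.7%). Within 1 kb of a start site the Mof+/- counts were 5 posterior, 0 middle and 2 anterior genes, so that the share of anterior minus that of posterior genes was −14.6 percentage points, compared with −39.6 with the wider window. The median distance from any start site to the nearest Mof+/- peak was 20.6 kb for anterior, 4.09 kb for middle and 2.90 kb for posterior genes. For Mof+/+ peaks it was 0.192 kb, 1.26 kb and 0.129 kb. The median gene length was 3430 bp in anterior, 3505 bp in middle and 3497.5 bp in posterior genes. By paralogous group, all 3 members of group 10 carried a peak in both lists.

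Split between the group 9 gene and its neighbour, the posterior sides of the clusters (228.4 kb) held 38 Mof+/+ and 29 Mof+/- summits, and the anterior sides (287.4 kb) 26 and 4. Mof+/+ peaks covered 23.0% of the posterior sides and Mof+/- peaks 10.5%, compared with 7.23% and 0.682% of the anterior sides. The clusters did not share this pattern equally. In Hoxa the posterior side was covered to 64.3% and 28.5% and the anterior side to 11.2% and 0% in the Mof+/+ and Mof+/- list. In Hoxd the posterior side was covered to 36.3% and 23.8% and the anterior side to 2.13% and 0%. In Hoxc the values were 9.58% and 2.21% on the posterior side and 2.63% and 1.69% on the anterior side. In Hoxb the Mof+/+ coverage was lower on the posterior side, 7.59% against 10.6%, and the Mof+/- coverage was 2.53% against 1.07%. Of the 85.4 kb of the Hoxb posterior side, 74.0 kb is the stretch between Hoxb13 and Hoxb9, without coding Hox genes. All 22 Mof+/- summits of Hoxa and Hoxd were thus on the posterior sides, whereas 3 of 8 in Hoxb and 1 of 3 in Hoxc were on the anterior side. In the Mof+/+ list cut to 716 peaks, 4 of the 5 in the clusters were on the posterior side.

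**Figure D3:**
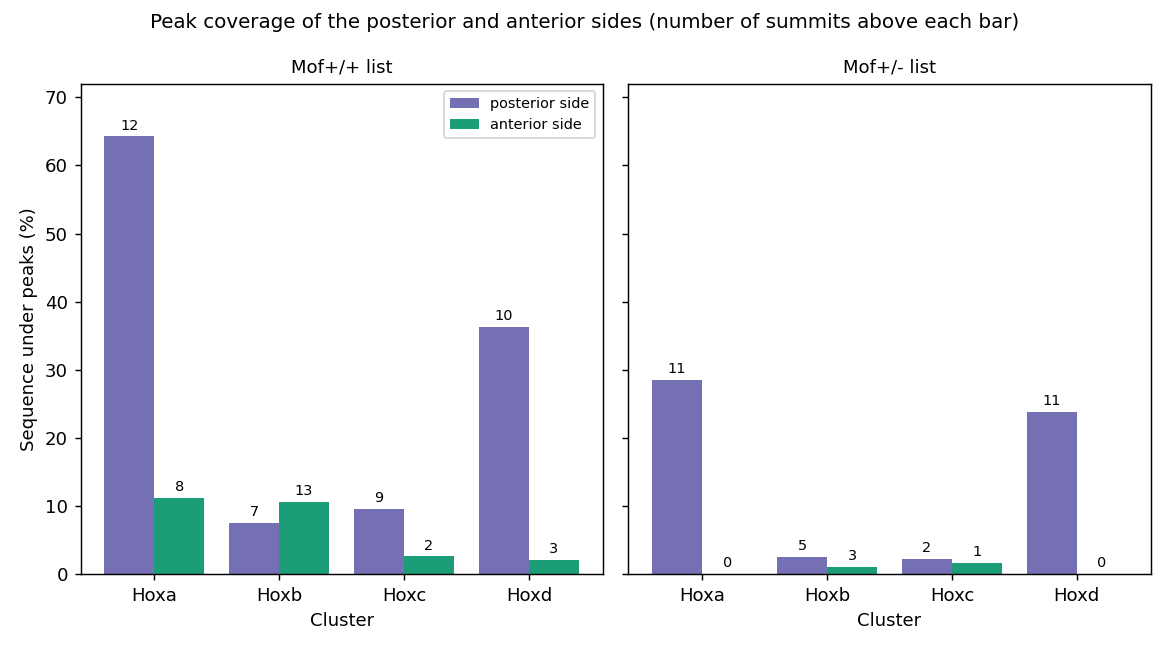
Percent of sequence under peaks (y axis) on the posterior and anterior sides of each cluster (x axis), in the Mof+/+ list (left) and the Mof+/- list (right), with the number of summits above each bar. The posterior sides of Hoxa and Hoxd stand out in both lists, and Hoxb is the cluster in which the Mof+/+ list covers the anterior side more. Most of the Hoxb posterior side is the stretch between Hoxb13 and Hoxb9, without coding Hox genes.

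The posterior side of Hoxa had the highest coverage of any side in both lists. Its 4 genes are relatives of the fly gene Abdominal-B; Hoxa11 and Hoxa13 pattern the limb and the urogenital tract, Hoxa10 the uterus, and Hoxa9 is known for its role in blood progenitors. Hoxa9 (chr6:52223100-52231089, minus strand) had 5 Mof+/+ and 4 Mof+/- peaks, 3 of each within 1 kb of a start. Its principal start was overlapped by the Mof+/+ peak at chr6:52225038-52228023, with a fold enrichment of 6.19, and a Mof+/- peak at chr6:52225674-52227154, of 6.13, lay 216 bp from that start. The Mof+/- peak was contained in the Mof+/+ peak and the summits were 97 bp apart. At Hoxa10 (chr6:52231197-52240854) a Mof+/+ peak of 6.42 at chr6:52230341-52234106 had its summit in the coding sequence, and the Mof+/- peak inside it, at chr6:52231156-52233052, reached 5.24 and had its summit in an annotated UTR. A further pair lay in an intron of the long transcript, at chr6:52238020-52240698 (Mof+/+, 4.26) and chr6:52238540-52240269 (Mof+/-, 4.51). At Hoxa11 (chr6:52242106-52245810) a Mof+/+ peak of 4.44 with its summit in the coding sequence spanned the start, and the Mof+/- peak in it, of 4.60, had its summit at −199 bp from the start, in an exon of the antisense transcript Hoxa11os. Over the bodies of these genes, Mof+/+ peaks covered 74.6% of Hoxa9, 57.9% of Hoxa10, 69.7% of Hoxa11 and 89.0% of Hoxa13. The Mof+/- peaks covered 30.9%, 37.1%, 8.04% and 23.5%, respectively.

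Hoxa13 had no Mof+/- peak within 1 kb of a start but 3 within its window. Of these, 2 lay within a Mof+/+ peak of 3.92 over the gene body, with fold enrichments of 3.60 and 4.07. The third lay upstream at chr6:52261910-52263665, with 3.96, and its summit was in an exon of Hottip, a long noncoding RNA known to act on the posterior Hoxa genes. The Mof+/+ peak at that place reached 6.42. The highest Mof+/- value of the Hoxa cluster, 7.67 from 24 fragments, was not on a gene. It lay at chr6:52253315-52254987 (sequence above), in the interval of 13042 bp between the principal transcripts of Hoxa11 and Hoxa13. This interval reaches into the annotated body of Hoxa13. The right edge of the Mof+/- peak was at the same base as that of the Mof+/+ peak chr6:52252541-52254987, and the summits were 184 bp apart. That Mof+/+ peak had a fold enrichment of 7.30, the highest of any Mof+/+ peak in the 4 clusters. Mof+/+ peaks covered 63.7% of the interval and Mof+/- peaks 24.9%.

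Next to these genes the order changed within a few kb. Hoxa7, a middle gene, was covered to 53.1% by Mof+/+ peaks and had 6 of them, the highest at 5.31, but the nearest Mof+/- peak was 3820 bp from a start. Hoxa4, an anterior gene, carried the strongest Mof+/+ peak within 1 kb of a start in the cluster, 6.64 from 29 fragments at chr6:52191955-52192687, 202 bp from the start (sequence above). The nearest Mof+/- peak to Hoxa4 was 33921 bp away. Among Mof+/+ peaks of the whole list this one ranked 262 by fold enrichment, and it was the strongest in the clusters without a Mof+/- overlap. Hoxa2, which specifies the hindbrain and the face, had the lowest value of the cluster when each gene was taken by its highest Mof+/+ peak within 1 kb of a start, 3.76, 92 bp from its start.

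In Hoxd, the Mof+/- peaks formed 2 groups, around Hoxd13 and between the end of Hoxd11 and the intron of Hoxd10. Hoxd13, which patterns the digits, is annotated at chr2:74668310-74671599 on the plus strand. Its start was covered by a Mof+/- peak at chr2:74668013-74668361 with a fold enrichment of 7.67 from 24 fragments (sequence above), and by a Mof+/+ peak at chr2:74667524-74669016 of 5.31 from 23 fragments. The summits were 41 bp apart. The RefSeq start of Hoxd13 is 85 bp upstream of that of GENCODE, so that the Mof+/- summit was at −68 bp from the start in GENCODE and within an exon in RefSeq. The gene had 5 Mof+/- peaks in its window against 3 Mof+/+ peaks, and these covered 71.9% and 76.1% of its body. Hoxd13 was the only one of the 39 genes with more than 50% of its body under Mof+/- peaks. Hoxd10 (chr2:74691924-74695105), which acts in lumbar motor neurons and the limb, had a single wide Mof+/+ peak of 4350 bp with a fold enrichment of 3.67 that reached over its start. The Mof+/- list held 4 separate peaks within that stretch, of 5.48, 6.44, 4.75 and 4.70, and 1 more in the intron of Hoxd10, at chr2:74692354-74692810 with 4.95, that overlapped no Mof+/+ peak. In the 7.76 kb between the principal transcripts of Hoxd11 and Hoxd10, Mof+/+ peaks covered 80.1% of the sequence and Mof+/- peaks 50.8%. The annotated body of Hoxd11 runs on to chr2:74687016, within that stretch. The RefSeq start of Hoxd10 is 7651 bp upstream of that of GENCODE, so that nearly all of this stretch lies within a Hoxd10 transcript in RefSeq. Much of this stretch is annotated as an intron of the noncoding transcript Gm28309, which held 6 Mof+/- and 3 Mof+/+ summits.

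The remaining Hoxd genes had no Mof+/- peak within 1 kb of a start. Hoxd11 had 4 Mof+/+ peaks of up to 4.20 and a Mof+/- peak of 4.79 at its 3′ end, Hoxd12 and Hoxd9 had a single Mof+/+ peak each, of 3.67 and 3.32, and Hoxd8 carried the weakest Mof+/+ promoter peak of the cluster, 2.51, over its start. Hoxd3 and Hoxd4 had Mof+/+ peaks of up to 3.54 and 3.10, and the nearest Mof+/- peak was 19117 bp and 19119 bp from their starts.

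The Hoxb cluster differed from Hoxa and Hoxd in that its Mof+/- peaks were narrow, with a median width of 391.5 bp, and lay on both its posterior and its anterior side. A group of 4 lay downstream of Hoxb13, a gene known from prostate and tail development, in the 74.0 kb without coding Hox genes that part it from Hoxb9. The strongest, at chr11:96203305-96203684 (sequence above), had a fold enrichment of 6.44, and its summit was 1 bp from that of a Mof+/+ peak of 4.09. Hoxb13 itself carried no peak in either list, and its nearest were 6064 bp (Mof+/+) and 6658 bp (Mof+/-) from the start. Hoxb9, which patterns the ribs, had the strongest Mof+/+ promoter peak of the cluster, 3.58, and a Mof+/- peak of 5.52 that lay 1019 bp from the start, just outside the 1 kb limit. The anterior genes with a Mof+/- peak near a start were both in this cluster. Hoxb4, a regulator of blood stem cells, had a Mof+/- peak of 3.99 that ended 158 bp upstream of the start, and a Mof+/+ peak of 3.24 over the start. At Hoxb3, a hindbrain gene, the Mof+/- peak of 3.78 was near an alternative start inside the long gene, where the Mof+/+ peak was 3.54. A further Mof+/- peak, of 4.60, lay in the coding sequence of Hoxb6 at chr11:96300734-96300994, between Mof+/+ peaks and overlapping none, and it was also in the window of Hoxb5. The Mof+/+ peaks near the starts of Hoxb5 and Hoxb6 were of 3.54. Hoxb2, Hoxb7 and Hoxb8 had Mof+/+ peaks of up to 3.32, 2.66 and 4.42 in their windows, 0 within 1 kb of a start, and no Mof+/- peak.

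The Hoxc cluster had the lowest median fold enrichment of Mof+/+ peaks, 2.88 against 4.26 in Hoxa and 3.32 in both Hoxb and Hoxd. No gene of the 9 carried a Mof+/- peak within 1 kb of a start. A Mof+/+ peak of 3.58 at chr15:102962125-102964557, between Hoxc11 and Hoxc10, contained 2 Mof+/- peaks, of 4.07 and 4.91 (sequence of the latter above). The third Mof+/- peak, of 4.91, was between Hoxc8 and Hoxc6 at chr15:102995980-102996924, at a weak Mof+/+ peak of 2.56 whose left edge it shared to the base. Hoxc6, a thoracic gene, had the strongest Mof+/+ promoter peak of the cluster, 3.76, near a start other than its principal one. Hoxc12, which acts in hair follicles, had 2 such peaks, of 2.71 and 2.59, the lowest near a start in the cluster. Hoxc9 and Hoxc11 had Mof+/+ peaks near a start of 3.10 and 2.88, and Hoxc13 had 1 of 2.88 in its body.

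The genes without a peak in either list included Hoxa5, Hoxa6, Hoxb1, Hoxb13, Hoxc4, Hoxc8 and Hoxd1. Of these, Hoxb1, Hoxc4 and Hoxd1 stand at the anterior end of their clusters. The nearest Mof+/+ peak was 11713 bp from the start of Hoxb1, 20969 bp from Hoxc4 and 22630 bp from Hoxd1. Hoxa6 fell just outside the 3 kb window, at 3083 bp, whereas Hoxd12 was inside it with a Mof+/+ peak at 2723 bp. For Mof+/- peaks, Hoxc10 was inside with 2461 bp and Hoxd12 outside with 3338 bp, and Hoxc5, at 3108 bp from a start, was counted for its long body. Absence from a list does not show absence of MOF, since weaker signal than the threshold is not listed.

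Many peaks lay between genes. The 33 intervals between neighbouring coding Hox genes, drawn from their principal transcripts, held 35 Mof+/+ and 21 Mof+/- summits in 309.5 kb, and 21 and 8 of the intervals held any. Such intervals take in parts of Hox bodies where other transcripts are longer. Over the whole clusters, 27 of 64 Mof+/+ and 20 of 33 Mof+/- summits lay outside every annotated Hox body. Outside any annotated gene, coding or not, lay 19 Mof+/+ and 12 Mof+/- summits. By distance to the nearest Hox start, 12 of 33 Mof+/- and 29 of 64 Mof+/+ summits were within 1 kb, and the median distance was 1598 bp and 1407 bp. Of 47 genes in the clusters annotated as other than protein-coding (called noncoding here), 12 held a Mof+/+ summit and 7 a Mof+/- summit. Over 33475 such genes of the genome, which take in pseudogenes and all other biotypes, the shares were 4.79% and 0.335%. Many of the 47 overlap Hox genes or each other and share summits. Those with a Mof+/- summit were Gm28309, Hoxa11os with the short RNA Gm28032, Hottip with the short RNA Gm27383, Hoxb5os and Gm11536. Those with a Mof+/+ summit alone were Hoxaas3, 9530018H14Rik, Gm53, Hoxb3os, Gm14396, Gm28793 and Hoxd3os1.

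The clusters also hold the genes of the microRNAs miR-10, miR-196 and miR-615, of which miR-196 is known to target Hox messages and to act in adipose progenitors through Hoxc8. The hairpin of Mir196b, at chr6:52230081-52230165 within the annotated body of Hoxa9 and upstream of the principal start of Hoxa9, lay under a Mof+/- peak of 3.78 at chr6:52230051-52230472, and the nearest Mof+/+ peak was 113 bp away. The hairpin of Mir10a, upstream of Hoxb4, was 496 bp from a Mof+/- and 724 bp from a Mof+/+ peak. Mir196a-1 was 4887 bp, Mir196a-2 9015 bp and Mir10b 33260 bp from the nearest Mof+/- peak. The mature sequences (RefSeq, GRCm38.p6) are given with the seed, bases 2 to 8, in capitals, since the genes near a Mof+/- peak and those far from one share seeds.
mmu-miR-196b-5p: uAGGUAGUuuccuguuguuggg
mmu-miR-196a-5p: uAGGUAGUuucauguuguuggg
mmu-miR-10a-5p: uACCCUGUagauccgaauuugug
mmu-miR-10b-5p: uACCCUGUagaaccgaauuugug
Both miR-196 sequences have the same seed, as have both miR-10 sequences.

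Of the 33 Mof+/- peaks in the clusters, 31 overlapped a Mof+/+ peak by at least 1 bp (93.9%, 95% Wilson interval 80.4% to 98.3%, for counting error only), compared with 84.8% over the whole Mof+/- list. The exceptions were the peaks in Hoxb6 and in Hoxd10. In the other direction, 21 of the 64 Mof+/+ peaks overlapped a Mof+/- peak (32.8%, interval 22.6% to 45.0%), compared with 2.44% over the whole Mof+/+ list. By cluster these were 9 of 20 in Hoxa, 5 of 13 in Hoxd, 5 of 20 in Hoxb and 2 of 11 in Hoxc. The 21 had a median fold enrichment of 3.92 and a median width of 1797 bp, and the other 43 had 3.32 and 521 bp. Of those 43, 17 were weaker than the weakest Mof+/- peak of the genome, and of the 21, 3 were. Both Wilson intervals treat peaks as independent, which neighbouring peaks are not, so they are a rough guide only. Joined within 1000 bp, the Mof+/- peaks of the clusters numbered 17 and the Mof+/+ peaks 40.

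The overlaps formed 32 pairs, since a wide Mof+/+ peak could contain several Mof+/- peaks, and in 19 pairs the Mof+/- peak lay wholly inside. The summits were between 1 and 2259 bp apart, with a median of 430.5 bp against 390 bp over all 620 pairs of the lists. Summits within 100 bp of each other made up 4 of the 32 pairs (12.5%) and 24.8% of all pairs. The Mof+/- peak had the higher fold enrichment in 23 of 32 pairs, against 279 of 620 over the genome. By cluster it was higher in 7 of 7 pairs in Hoxb, 3 of 3 in Hoxc, 9 of 11 in Hoxd and 4 of 11 in Hoxa. Fold enrichment depends on the depth of each list and its input, and a higher value does not mean more MOF.

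**Figure D4:**
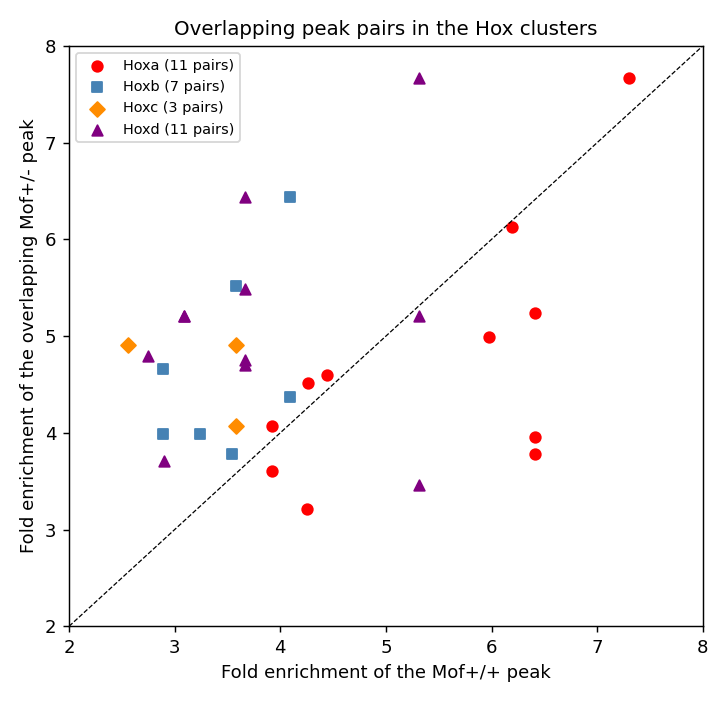
Fold enrichment of the Mof+/- peak (y axis) against that of the Mof+/+ peak it overlaps (x axis) for the 32 pairs in the clusters, 1 point per pair, with symbols for the clusters and a dashed line of equal values. The Hoxb and Hoxc points lie above the line, 9 of the 11 Hoxd points do, and 7 of the 11 Hoxa points lie below it.

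The posterior sides of the clusters held 24.3 CpG sites per kb and the anterior sides 23.8 when pooled, against 8.26 over the genome, but the clusters differed. The posterior side was richer in CpG in Hoxa (33.0 against 27.2 per kb), Hoxd (34.9 against 23.8) and Hoxc (23.5 against 18.4), and poorer in Hoxb (16.3 against 24.6). Hoxa and Hoxd were also the clusters with all Mof+/- summits on the posterior side, and Hoxb was the one with less Mof+/+ coverage there. On the pooled sides, repeat-masked sequence made up 20.8% and 15.9%, against 36.4%. Between clusters, CpG density was 29.4 per kb in Hoxa and 27.7 in Hoxd, the clusters with the most Mof+/- coverage, and 21.2 in Hoxc and 20.7 in Hoxb. The part of CpG density in these differences was not tested. The promoters of the Hox genes, as 1 kb centred on the principal start, held a median of 56 CpG sites against 43 for all protein-coding genes. At the 5 genes with a Mof+/- peak within 1 kb of that principal start, the promoter held 26 sites at Hoxa9, 36 at Hoxb4, 49 at Hoxd10, 62 at Hoxa11 and 118 at Hoxd13, on both sides of the Hox median. Hoxa10 and Hoxb3, whose Mof+/- peaks were at other starts, held 72 and 15. Among 6590 other protein-coding genes with 37 to 71 CpG sites, from the lower to the upper quartile of the Hox genes, 57.1% carried a Mof+/+ peak and 1.76% a Mof+/- peak within 1 kb.

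**Figure D5:**
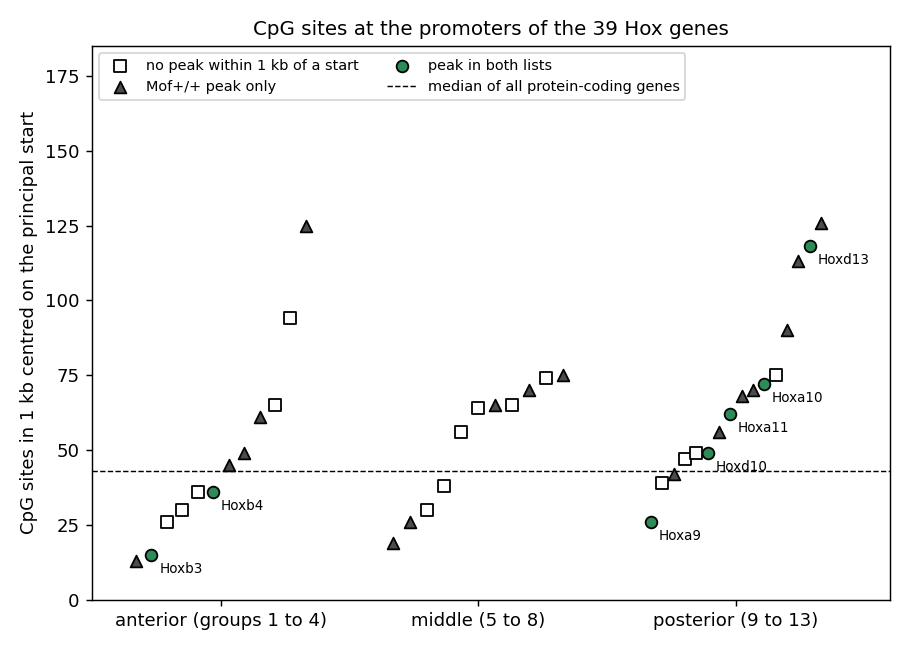
CpG sites in the 1 kb centred on the principal start (y axis) of the 39 Hox genes, in anterior, middle and posterior groups (x axis), with 1 symbol per gene by the peaks within 1 kb of a start and a dashed line at 43, the median of all protein-coding genes. The 7 named genes with a peak in both lists run from 15 to 118 sites and are mixed with the others, and Hoxa10 and Hoxb3 have their Mof+/- peak at a start other than the principal one.

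The core letters that homeodomains bind, TAAT on either strand, were in 92.3% of the Hox promoters and in 87.6% of all protein-coding promoters of that length. The letters TGATNNAT, a site of Hox with Pbx proteins that can overlap a TAAT, were in 16 of 39 Hox promoters (41.0%) and in 22.7% of all. Of the 5 with a Mof+/- peak within 1 kb of the principal start, Hoxa11 held them. A match is a string of letters and not a bound site.

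Chromatin was cut with CviKI-1, an enzyme that cuts between G and C where a purine stands before them and a pyrimidine after them, before it was sonicated. Of the 66 edges of Mof+/- peaks in the clusters, 53 (80.3%) were exactly at such a cut, and of the 128 edges of Mof+/+ peaks 89 (69.5%), compared with 76.7% and 75.0% over the whole lists. The limits of a peak are thus mostly cut sites. Cut sites numbered 21.3 per kb on the pooled posterior and 21.1 on the pooled anterior sides, against 14.9 over the genome. They were denser on the posterior side in Hoxa (24.0 against 21.7 per kb) and Hoxd (23.8 against 20.5), alike in Hoxc (20.5 against 20.4) and sparser in Hoxb (19.5 against 21.5). The part of cut sites in the spread of peaks was not tested. In each cluster 1 edge was at the same base in both lists, and all 4 were at a cut site, shown in capitals (GRCm38, plus strand).
Hoxa11–Hoxa13 interval, chr6:52254978-52254997: caggaggaGGCCaatgttct
Upstream of Hoxb9, chr11:96270142-96270161: cgcagattAGCTgctaataa
Hoxc8–Hoxc6 interval, chr15:102995970-102995989: acctaaggAGCCcctgcgtc
Hoxd11–Hoxd10 interval, chr2:74687238-74687257: aagtaacaGGCCactgtact

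The peaks went on beyond the outer limits where the clusters adjoin an Evx gene, a homeobox relative. Just outside the limit of Hoxa next to Hoxa13, the nearest Mof+/+ peak was 1475 bp and the nearest Mof+/- peak 3899 bp away. Next to Hoxd13 these were 4127 bp and 4190 bp. At the other limits the nearest Mof+/- peak was 13529 bp away next to Hoxb13, 20066 bp next to Hoxc4 and at least 512582 bp elsewhere. Evx2, 8753 bp from Hoxd13, had 5 Mof+/+ peaks of up to 5.80 and 4 Mof+/- peaks of up to 6.75. Evx1, 52618 bp from Hoxa13, had 2 Mof+/+ peaks of up to 6.59 and a Mof+/- peak of 5.83, and the interval between them held 6 summits of each list. The coding neighbours on the other flanks, Skap2, Skap1, Calcoco1, Smug1 and Mtx2, each had 1 Mof+/+ peak of between 2.75 and 3.32 and no Mof+/- peak, and Ttll6 had neither.

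Other homeobox families were set beside the Hox genes. A Mof+/- peak in the body or within 3 kb of a start was at 6 of 10 LIM homeobox genes (60%; Isl2, Lhx1, Lhx2, Lhx4, Lhx8 and Lhx9) and at 4 of 9 Dlx and Msx genes (44.4%; Dlx1, Dlx2, Dlx6 and Msx1), compared with 38.5% of Hox genes. A Mof+/+ peak was at 7 of 10 and 4 of 9, compared with 31 of 39. The highest Mof+/- value was 8.89 at Lhx8 and 6.13 at Dlx1 and Dlx2, compared with 7.67 at Hoxd13. The share of Hox genes in the Mof+/- list was thus below that of both families. Over all protein-coding genes these shares were 44.5% for Mof+/+ and 1.89% for Mof+/- peaks, and they apply to the lists that follow as well. Of 9 Hox cofactors, the Meis, Pbx and Pknox genes, 5 (55.6%) carried a Mof+/+ and 2 (22.2%) a Mof+/- peak, Meis1 (3.78) and Meis2 (4.29). Of 13 genes next to or related to the Hox clusters, 8 (61.5%) carried a Mof+/+ peak and 3 (23.1%) a Mof+/- peak, namely Evx1, Evx2 and Mnx1 (3.68). Of 17 regulators of Hox genes, 15 (88.2%) carried a Mof+/+ peak and 5 (29.4%) a Mof+/- peak. These 5 were the Polycomb genes Bmi1 (4.37) and Cbx2 (5.52), the trithorax methyltransferase Kmt2b (4.29), and the retinoic acid receptors Rara (3.68) and Rarg (3.49).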

How the data were processed

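MOF ChIP-seq peaks of visceral WAT were analysed as 1 deposited list per genotype. According to the study's methods, the authors mapped reads to GRCm38 with snakePipes and called peaks against input with MACS2 (2.1.1.20160309.3 in the submitters' processing notes) at a q-value of 0.1. The MOF antibody in the labels has another catalogue number than those in the reporting summary, so which was used is not certain. Whether replicates were pooled is not stated. The deposited fold enrichment (a ratio) and the deposited −log10 p-value and q-value at each summit were used as they stood. The study's methods also describe a merge of peaks with a distance of 1000 bp. In the lists used here, neighbouring peaks within 1000 bp were still separate. The members, gene lists and comparisons were chosen with earlier results of these data known.

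Peaks were intersected with GENCODE M21 genes in Python 3.11.15 (pandas 2.3.3, pysam 0.24.0), by at least 1 bp. Fragments and background at summits were solved from fold enrichment and p-value, with a tolerance of 0.001. The functions were tested on simulated data. Depth is known from these values alone. No test was made, since the peak lists hold no replicate values. Given in full were genes with a Mof+/- peak within 1 kb of a start, the genes with the highest and lowest Mof+/+ value (highest peak within 1 kb of a start) in each cluster, and genes without a peak. An item is not reported here. H3 libraries, and the signal tracks that the reporting summary lists for the series, were not analysed here.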

Additional observations from a re-analysis of the deposited data

How the results depend on the processing

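Of 50 values for 10 results under other settings, 33 were alike (within 1.5 times, or within the Wilson interval for the share of overlapping peaks). That interval served as a set limit and not as a test. No paired analysis was possible because there were no replicate values, with 1 peak list for a genotype. With peaks counted within 1 kb of any start, by peak or by summit, Hox genes with a Mof+/- peak numbered 7 in place of 15, and the difference between anterior and posterior genes was −14.6 in place of −39.6 percentage points. With principal starts, a setting chosen after seeing the data, 5 genes had a Mof+/- peak. Joining peaks within 1000 bp left 40 Mof+/+ and 17 Mof+/- peaks in the clusters. At a q-value of at most 0.001, 34 Mof+/+ peaks were left, and the overlap of Mof+/- peaks was 72.7%. When the Mof+/+ list was cut at 716 peaks by p-value, it held 5 Hox genes and 5 peaks in the clusters, covered 2.31% of the sequence and gave an overlap of 15.2%; a peak in an exon of Hoxa9 tied with the last peak kept. Requiring 50% of both peaks gave an overlap of 21.2%. The ratio of the median fold enrichment of Mof+/+ cluster peaks to that of the whole list, 1.04, was below 1 against promoter peaks (0.941) and at q-values of at most 0.01 (0.977) and 0.001 (0.946); the cause was not tested. With 12 to 32 fragments at a summit, weaker binding could not be seen at this depth.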
